A study of Mus musculus with 8 samples.

Results

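Mboat7 is a lysophospholipid acyltransferase, an enzyme that adds a fatty acid to a lysophospholipid, and 10 other genes of such enzymes were examined in cortex that carries or lacks it. The set was chosen by gene name, with no measured value in the rule: Mboat1, Mboat2, Lpcat1, Lpcat2, Lpcat3, Lpcat4, Lclat1, Agpat1, Agpat3 and Agpat5. Earlier results of these data were known when it was chosen. All 10 were found in both count tables, among 23420 genes listed for the embryonic stage E11.5 and 78298 for E12.5. The questions were which of these enzymes the early cortex expresses and whether any of them rises where Mboat7 is lost.

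RNA was sequenced from dissected cortices of heterozygous (Mboat7+/-) and homozygous knockout (Mboat7-/-) mouse embryos taken at E11.5 or E12.5. Each genotype was represented by 2 embryos a stage, which gave 8 cortices. The knockout was constitutive, in every cell of the embryo, on the C57BL/6N strain. The controls also carried 1 knockout allele, so no wild-type level was measured. Embryos of either sex were taken. Xist, the X-inactivation transcript of female cells, had 17875 counts in the E11.5 Mboat7+/- cortex 1 and at most 2 counts in every other cortex, and no gene of the set lies on a sex chromosome. Total counts ranged from 20799311 to 28189771 per cortex, so that a count of 3 corresponded to between 0.106 and 0.144 CPM (counts per 1000000 counts of a library). The stages were sequenced by different providers on different platforms, and their levels are given side by side without a test.

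Cells build phospholipids in a first pathway from glycerol 3-phosphate and then exchange their fatty acids in a second one, the Lands cycle, in which a phospholipase A removes a fatty acid and a lysophospholipid acyltransferase puts another in its place. MBOAT7 is known for placing arachidonic acid in phosphatidylinositol (PI), the phospholipid from which phosphoinositides are made. The other enzymes of the set act on other lysophospholipids, or on lysophosphatidic acid in the first pathway, and a few are known to accept lysophosphatidylinositol as well.

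The set falls into 2 protein families. Mboat1, Mboat2 and Lpcat3 belong, like Mboat7, to the membrane-bound O-acyltransferases (MBOAT). The other 7 belong to the family of the 1-acylglycerol-3-phosphate O-acyltransferases (AGPAT), whose catalytic site holds a histidine and an aspartate with 4 residues between them. The stretches below show that motif in the coding sequences, because it is the feature on which the families differ. It was searched in frame on the coding strand of the longest coding sequence of each gene as a histidine codon (CAC or CAT), 4 codons of any kind and an aspartate codon (GAC or GAT). It was present in all 7 AGPAT-family genes and in none of Mboat1, Mboat2, Lpcat3 and Mboat7. A match by itself is common, since 40.9% of 21620 protein-coding genes held at least 1. Each stretch runs 5′ to 3′ with the first match in capitals and 6 codons on either side, from the GENCODE M21 transcripts, with GRCm38 coordinates. Those of Agpat1 and Agpat5 run across an intron, so their coordinates span more than the 54 bases shown. Lclat1 held 3 matches and Agpat5 held 2, of which the first is shown.
Lpcat1 (chr13:73488993-73489046, plus strand): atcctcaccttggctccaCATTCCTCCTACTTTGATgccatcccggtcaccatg
Lpcat2 (chr8:92869754-92869807, plus strand): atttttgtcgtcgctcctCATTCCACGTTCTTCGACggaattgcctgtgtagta
Lpcat4 (chr2:112242034-112242087, plus strand): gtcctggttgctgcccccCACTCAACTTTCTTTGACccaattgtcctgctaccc
Lclat1 (chr17:73169565-73169618, plus strand): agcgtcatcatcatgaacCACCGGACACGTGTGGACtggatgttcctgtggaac
Agpat1 (chr17:34610963-34611284, plus strand): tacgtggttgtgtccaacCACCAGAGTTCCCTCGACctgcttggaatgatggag
Agpat3 (chr10:78285022-78285075, minus strand): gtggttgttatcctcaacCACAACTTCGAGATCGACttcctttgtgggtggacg
Agpat5 (chr8:18861516-18868915, plus strand): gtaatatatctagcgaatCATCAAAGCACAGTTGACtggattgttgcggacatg

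Transcripts of all 10 enzymes were detected in all 8 cortices, and all 10 passed the filter on low counts at both stages. Levels of different genes were compared as CPM per kilobase of the union of a gene's annotated exons, averaged over the 4 cortices of a stage. Agpat1, which makes phosphatidic acid in the endoplasmic reticulum, stood first at both stages, at 56.4 CPM per kilobase in the E11.5 cortices and 44.6 in the E12.5 cortices, which placed it at the 91.6th and 89.9th percentile of the genes tested. Lpcat1, known for making dipalmitoyl phosphatidylcholine in lung surfactant, was next, at 14.8 and 32.8. By the exon union, these 2 genes together made 59.7% of the summed level per kilobase of the set at E11.5 and 61.7% of it at E12.5.

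The middle of the order held Lpcat3 (12.1 CPM per kilobase at E11.5 and 9.43 at E12.5), Agpat3 (10.3 and 14.1), Lpcat4 (8.67 and 3.60), Lclat1 (4.97 and 5.90), Mboat2 (4.89 and 8.14) and Agpat5 (4.14 and 5.29). Mboat7 itself lay among them, at 12.1 and 11.8. Mboat1 (2.12 and 1.01) and Lpcat2 (0.916 and 0.609) closed the list, and Agpat1 exceeded Lpcat2 by 61.5-fold at E11.5 and 73.2-fold at E12.5. At E11.5 the values of the cortices overlapped between the neighbours Lpcat1 and Lpcat3, Lpcat3 and Mboat7, and Lclat1 and Mboat2. At E12.5 no neighbours overlapped.

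**Figure D1:**
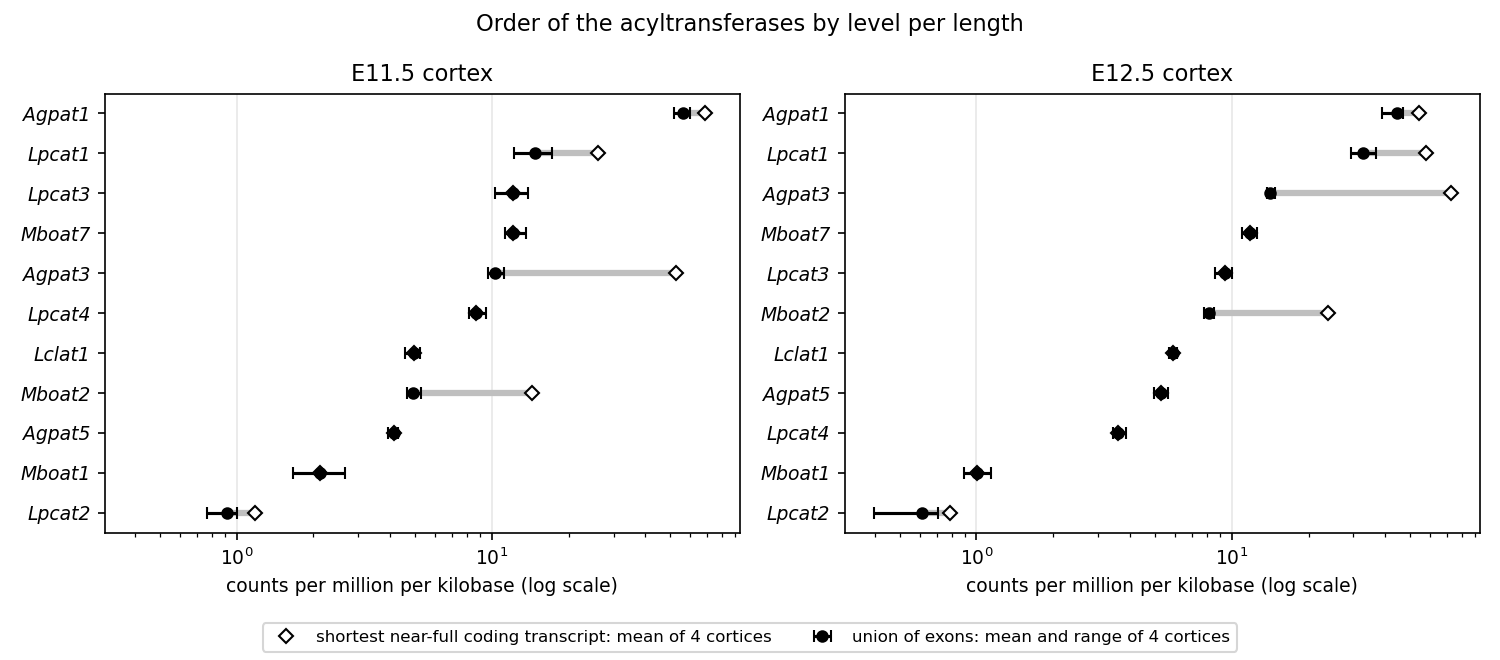
Mean level of each gene in CPM per kilobase (log scale) at E11.5 (left) and E12.5 (right), with filled circles for the union of exons, bars for the lowest and highest of 4 cortices, and open diamonds for the shortest transcript with at least 90% of the longest coding sequence. Agpat1 leads both stages by exon union, and Agpat3 moves most between the lengths, from 10.3 to 52.7 in the left panel and from 14.1 to 72.3 in the right one.

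The length taken for a gene decided part of this order. Agpat3 and Mboat2 have exon unions of 6.75 and 6.888 kilobases but shorter transcripts of 1.316 and 2.351 kilobases that hold almost the whole coding sequence. Divided by those, Agpat3 moved from rank 5 to rank 2 among the 11 genes at E11.5 and to rank 1 from rank 3 one stage later, and Mboat2 moved to rank 4 at both stages. Agpat1 then held rank 1 at E11.5 and rank 3 at E12.5, behind Agpat3 and Lpcat1. Mboat1 and Lpcat2 held ranks 10 and 11 with either length. The shares of Agpat1 and Lpcat1 in the summed level, given above, hold for the exon union only. Which transcripts the cortices used was not measured.

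Mboat7 was read first between the genotypes, because it is the gene that was disrupted. At E11.5 it stood at 32.3 and 33.1 CPM in the Mboat7+/- cortices and at 39.0 and 34.8 in the Mboat7-/- cortices. At E12.5 the values were 35.5 and 36.2 in Mboat7+/- and 31.7 and 32.2 in Mboat7-/-. The knockout cortices thus lay above the heterozygous ones at E11.5 (log2 fold change 0.17 ± 0.11, SE, n = 2 embryos per genotype, edgeR quasi-likelihood test, FDR = 0.527) and below them at E12.5 (-0.17 ± 0.10, FDR = 0.958), and neither difference passed the test. The counts are totals over the gene, and the deleted part of Mboat7 was not given in the sources used here, so these totals do not check the genotype labels.

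No enzyme of the set differed between the genotypes at either stage at an FDR under 0.05. At E11.5, 0 of 10 were called, against 0 of all 14935 genes tested (0%). At E12.5, 0 of 10 were called against 3 of 16326 (0.0184%). At an unadjusted p under 0.05 the counts were 0 of 10 at E11.5, where 13.8% of all genes fell under it (7.94% higher and 5.81% lower in Mboat7-/-), and 1 of 10, higher, at E12.5, where 4.11% did (2.76% higher and 1.35% lower). With the 2 cortices of the same replicate number kept together as a block, 349 genes (2.34%) passed at E11.5 and 21 (0.129%) at E12.5, again none of the 10. The largest rise that the 95% confidence intervals of the fitted differences allowed was 1.61-fold at E11.5 (Mboat1), with 9 of 10 upper bounds under 1.5-fold. At E12.5 it was 2.12-fold (Lpcat2), with 8 of 10 upper bounds under 1.5-fold.

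**Figure D2:**
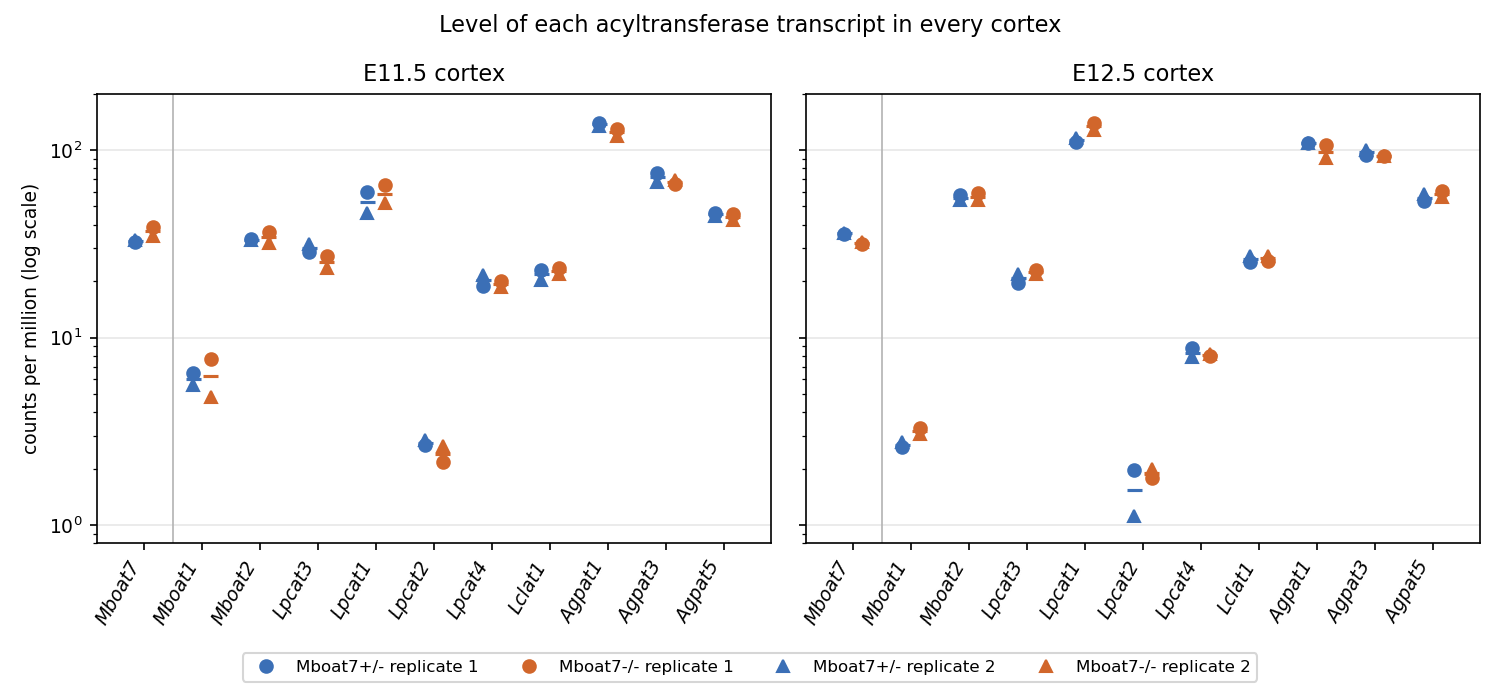
Level of Mboat7 and of each of the 10 enzymes in CPM (log scale) in every cortex at E11.5 (left) and E12.5 (right), with blue for Mboat7+/-, orange for Mboat7-/-, circles for replicate 1, triangles for replicate 2 and short lines for the mean of 2 cortices. The genotypes lie close together for every gene, and at E12.5 the Lpcat1 values of 138 and 128 in Mboat7-/- stand above the 111 and 115 in Mboat7+/-.

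The directions were mixed. The log2 fold change of Mboat7-/- against Mboat7+/- was above 0 for 4 of the 10 at E11.5 and for 7 of the 10 at E12.5, with medians of -0.06 and 0.04, while the medians over all genes tested were -0.006 and 0.005. The summed level of the 10 was 433 and 408 CPM in Mboat7+/- and 421 and 386 in Mboat7-/- at E11.5, and 483 and 496 against 519 and 484 at E12.5, so the genotypes overlapped at both stages. At E11.5 the genotypes did not overlap for 3 members, all lower in Mboat7-/- (Lpcat2, Lpcat3 and Agpat1), where 46.4% of all genes did not overlap, 23.3% lower and 23.1% higher. At E12.5, where 32% of all genes did not overlap, Mboat1, Lpcat1 and Lpcat3 were higher without overlap (16.9% of all genes) and Agpat1 and Agpat3 lower (15.2%). With replicate 1 compared with replicate 1 and 2 with 2, Lpcat1 and Lclat1 were higher in Mboat7-/- in all 4 comparisons of the 2 stages and Agpat1 was lower in all 4. Of the 13637 genes tested at both stages under the same symbol, 9% were higher in all 4 and 7.66% lower in all 4.

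**Figure D3:**
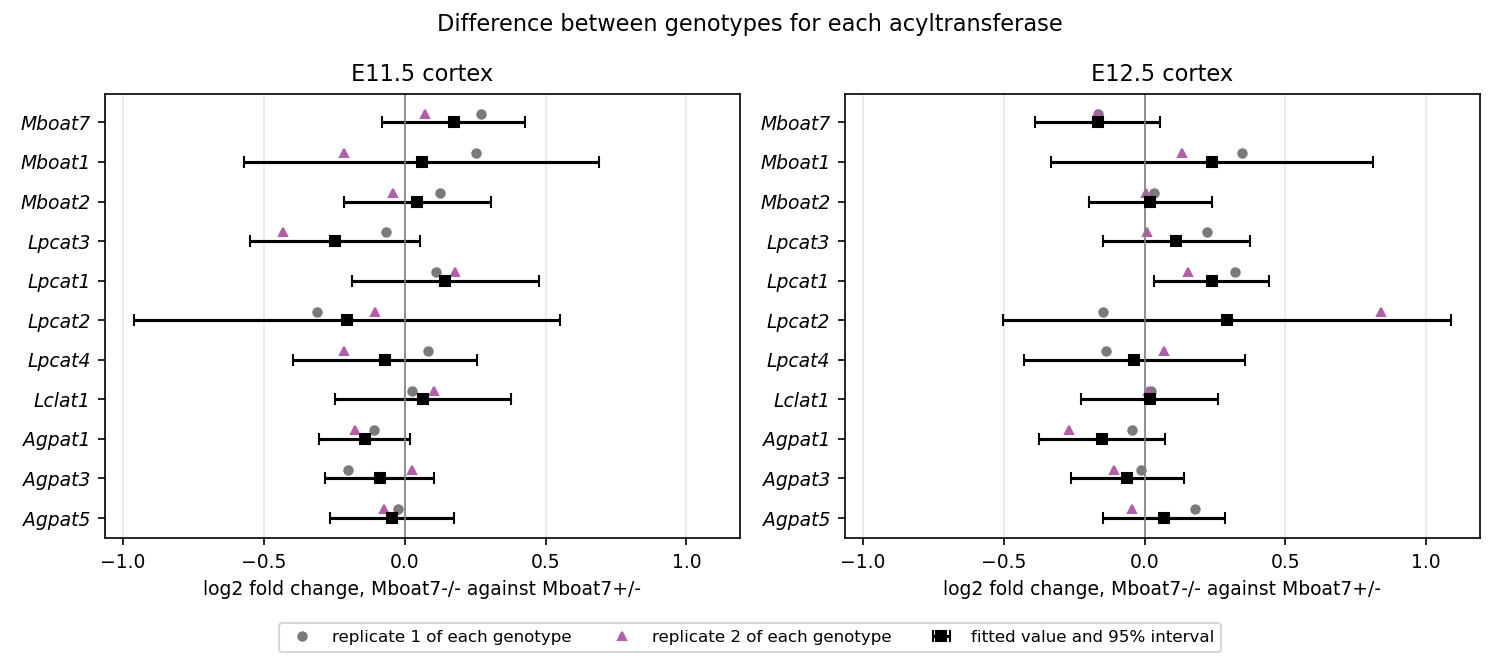
Log2 fold change of Mboat7-/- against Mboat7+/- for Mboat7 and the 10 enzymes at E11.5 (left) and E12.5 (right), with squares and bars for the fitted value and its 95% confidence interval and grey circles and purple triangles for the log2 ratios of replicate 1 and replicate 2. All intervals include 0 except that of Lpcat1 at E12.5, which runs from 0.04 to 0.44 before adjustment over all genes and without the replicate block.

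Among the MBOAT enzymes, Lpcat3 (ENSMUSG00000004270, GRCm38 chromosome 6, 124663027 to 124704418, plus strand) adds polyunsaturated fatty acids, arachidonic acid among them, to phosphatidylcholine and phosphatidylethanolamine. At E11.5 it stood at 28.4 and 31.5 CPM in Mboat7+/- and at 27.1 and 23.4 in Mboat7-/-. At E12.5 the values were 19.6 and 21.8 against 22.8 and 21.9. The knockout values were thus the lower ones at E11.5 (log2 fold change -0.25 ± 0.13, SE, n = 2 per genotype, FDR = 0.456) and the higher ones at E12.5 (0.11 ± 0.12, FDR = 0.958), each outside the range of the other genotype but short of the test. In a fit over all 8 cortices the change between the stages was 0.36 ± 0.18 (SE, edgeR FDR = 0.857), with a 95% confidence interval of -0.02 to 0.74. Lpcat3 had the smallest p of the 10 in that test. The test called 0 of 14972 genes and put 5.68% of them under an unadjusted p of 0.05. Mboat7, outside the 10, had a smaller p there, at -0.34 ± 0.14 (SE, edgeR FDR = 0.856). Its 95% confidence interval ran from -0.66 to -0.03 before adjustment over all genes.

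Mboat2 (ENSMUSG00000020646, chromosome 12, 24830879 to 24964397, plus strand) places oleic acid in phosphatidylcholine and phosphatidylethanolamine. It stood at 33.4 and 32.9 CPM in Mboat7+/- and at 36.4 and 32.0 in Mboat7-/- at E11.5, and at 57.6 and 53.8 against 58.9 and 54.0 at E12.5. The genotypes overlapped at both stages, with log2 fold changes of 0.05 ± 0.11 and 0.02 ± 0.10 (SE).

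Mboat1 (ENSMUSG00000038732, chromosome 13, 30136489 to 30246717, plus strand), which acts on lysophosphatidylserine and lysophosphatidylethanolamine, was among the least abundant. At E11.5 its level was 6.47 and 5.59 CPM in Mboat7+/- and 7.71 and 4.82 in Mboat7-/-, so that the spread within the knockout enclosed both heterozygous values. At E12.5 it was 2.60 and 2.78 against 3.30 and 3.05, higher in both knockout cortices by 0.24 ± 0.26 on the log2 scale (SE, FDR = 0.958), on 54 to 76 counts per cortex.

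Among the Lpcat genes of the AGPAT family, Lpcat1 (ENSMUSG00000021608, chromosome 13, 73467197 to 73516422, plus strand) showed the only unadjusted p under 0.05 of the set. At E12.5 it stood at 111 and 115 CPM in Mboat7+/- and at 138 and 128 in Mboat7-/-. Both knockout cortices were higher, by 0.24 ± 0.09 on the log2 scale (SE, n = 2 per genotype), and this did not hold after adjustment over all genes (edgeR FDR = 0.958). With the replicate block, where no enzyme of the set had an unadjusted p under 0.05, that of Lpcat1 was 0.077 (edgeR quasi-likelihood test). With replicate 1 of a genotype blocked with replicate 2 of the other, chosen after seeing the data, it was 0.0031 (edgeR, FDR = 0.137). In that fit 12.4% of all genes had an unadjusted p under 0.05. Without normalization factors the Lpcat1 p was 0.0066 (edgeR, FDR = 0.958). Its log2 fold change at E12.5 ranged from 0.18 to 0.29 over the alternatives run. At E11.5 the values were 59.9 and 46.0 CPM against 64.8 and 52.0. There the replicates of a genotype differed more than the genotypes did, the genotypes overlapped, and the log2 fold change was 0.14 ± 0.15 (SE, FDR = 0.7003). Without the E11.5 Mboat7+/- cortex 1, the female one, it was 0.35, and without the Mboat7+/- cortex 2 it was -0.03.

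Beside Lpcat1 at E12.5, 4 marker lists had summed levels without overlap between the genotypes. The sums of the radial glial and mesenchyme lists overlapped, as did the neuron and erythroid sums given below. For comparison, 32% of all single genes tested at E12.5 did not overlap. The summed level of the 4 markers of intermediate progenitor cells was 432 and 435 CPM in Mboat7+/- and 449 and 484 in Mboat7-/-, that of the 6 endothelial markers was 234 and 225 against 238 and 251, and that of the 8 macrophage and microglia markers was 40.2 and 33.6 against 41.2 and 47.2, while that of the 7 ventral telencephalon markers was lower, at 709.6 and 691 against 659 and 684. The summed level of the 7 neuron markers overlapped, at 3388 and 3196 against 3315 and 3309. Of the 7, 6 had a log2 fold change above 0, while Tubb3 was lower without overlap (-0.14). Neurod6 (0.46) and Neurod1 (0.28) had an unadjusted p under 0.05 without being called. So had Cx3cr1 (0.40) and C1qa (0.51) of macrophages and microglia, and Pax6 (0.22) and Nes (-0.32) of radial glial cells. Of the 8 macrophage and microglia markers, 7 had a log2 fold change above 0, while Aif1 was lower without overlap (-0.64), on 11 to 24 counts. The erythroid sum also overlapped, at 5308 and 7714 against 5402 and 3811. All 9 markers were below 0, with a median of -0.51, and 6 of 9 had an unadjusted p under 0.05. Over all genes tested at E12.5, 4.11% fell under that p, 2.76% higher and 1.35% lower. The part of these cells in the Lpcat1 values was not tested. In whole tissue, fewer cells of a type and less RNA per cell cannot be told apart.

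Lpcat2 (ENSMUSG00000033192, chromosome 8, 92855339 to 92919279, plus strand) makes platelet-activating factor and phosphatidylcholine and is known from macrophages. It was the least abundant of the set, on 58, 75, 61 and 65 counts at E11.5 and 41, 24, 41 and 45 at E12.5 (Mboat7+/- cortices 1 and 2, then Mboat7-/- cortices 1 and 2). In CPM this was 2.68 and 2.83 against 2.16 and 2.63 at E11.5, and 1.97 and 1.11 against 1.78 and 1.99 at E12.5. The low value of the E12.5 Mboat7+/- cortex 2 set the fitted difference there, 0.29 ± 0.36 (SE, FDR = 0.960) with all cortices and -0.07 without it. Of its exon bases, 10.2% are shared with Gm45472 on the opposite strand. Macrophage markers were at a low sum throughout, at most 51.8 CPM for all 8 together.

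Lpcat4 (ENSMUSG00000027134, chromosome 2, 112239468 to 112247111, plus strand) acts mainly on lysophosphatidylethanolamine. At E11.5 it stood at 18.8 and 21.6 CPM in Mboat7+/- and 19.9 and 18.6 in Mboat7-/-, and at E12.5 at 8.75 and 7.83 against 7.95 and 8.22. The genotypes overlapped at both stages, with log2 fold changes of -0.07 ± 0.14 and -0.04 ± 0.18 (SE).

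Lclat1 (ENSMUSG00000054469, chromosome 17, 73107985 to 73243368, plus strand) remodels cardiolipin and is one of the enzymes of the set that also acylates lysophosphatidylinositol. Its values lay close together among the cortices of a stage. It was 23.05 and 20.4 CPM in Mboat7+/- and 23.4 and 21.9 in Mboat7-/- at E11.5, and 25.3 and 27.1 against 25.7 and 27.4 at E12.5. The genotypes overlapped at both stages. The log2 fold changes were 0.06 ± 0.14 and 0.02 ± 0.11 (SE), with 95% upper bounds of 1.30-fold and 1.20-fold.

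Of the 3 Agpat genes, which acylate lysophosphatidic acid, Agpat1 (ENSMUSG00000034254, chromosome 17, 34604262 to 34613449, plus strand) was lower in both knockout cortices at both stages. At E11.5 it stood at 139 and 135 CPM in Mboat7+/- and at 129 and 119 in Mboat7-/-, and at E12.5 at 109 and 108 against 106 and 90.1. The log2 fold changes were -0.14 ± 0.07 (SE, edgeR FDR = 0.423) and -0.15 ± 0.10 (FDR = 0.958), so neither stage passed the test. At E12.5 the Mboat7-/- cortex 2 carried most of the difference, which was -0.04 without it. Agpat1 shares 4.3% of its exon bases with Egfl8 on the opposite strand.

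Beside the E11.5 value of Agpat1, 5 marker lists had summed levels without overlap between the genotypes. Those of erythroid cells (6779.9 and 5119 CPM in Mboat7+/-, 3536 and 3764 in Mboat7-/-, over 8 listed markers of which Hba-a1 and Hba-a2 were at 0 in every cortex), intermediate progenitor cells (400.2 and 422 against 299 and 387) and ventral telencephalon (589.6 and 539.567 against 448 and 539.538, over 7 markers) were lower, and those of mesenchyme (1687 and 1647 against 1919 and 2086, over 9 markers) and endothelium (268 and 257 against 293 and 283) were higher. The ventral telencephalon sums of Mboat7+/- cortex 2 and Mboat7-/- cortex 2 were almost equal. The sums of the radial glial, neuron and macrophage lists overlapped. For comparison, 46.4% of all single genes tested at E11.5 did not overlap. Of the 7 neuron markers, 0 had a log2 fold change above 0 at E11.5, with a median of -0.34. Tubb3 (-0.46) was lower without overlap, with an unadjusted p under 0.05 and without being called. The summed level of the neuron markers was low in the Mboat7-/- cortex 1 alone, at 1204 CPM against 1817 to 2071 in the other E11.5 cortices. Without that cortex the log2 fold change of Agpat1 was -0.20 and that of Lpcat3 was -0.36. The part of these cells in either value was not tested. Radial glial markers, which define the early cortex, summed to between 2768 and 4047 CPM in every cortex of both stages. At E11.5, 2 of the 10 had a log2 fold change above 0, and 5 were lower without overlap. Emx1 (-0.53), Pax6 (-0.26) and Hes5 (-0.25) had an unadjusted p under 0.05 without being called. Over all genes tested at E11.5, 23.3% were lower without overlap and 5.81% were lower at that p. The part of radial glial cells in the Agpat1 and Lpcat3 values was not tested.

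Agpat3 (ENSMUSG00000001211, chromosome 10, 78269178 to 78352489, minus strand), known for placing docosahexaenoic acid in phospholipids, stood at 75.3 and 67.7 CPM in Mboat7+/- and 65.5 and 69.0 in Mboat7-/- at E11.5. At E12.5 it was 94.1 and 100.1 against 93.4 and 92.8. Both knockout values lay below the heterozygous ones at E12.5 only, by less than 1 CPM between the nearest cortices, and the log2 fold changes were -0.09 ± 0.08 and -0.06 ± 0.09 (SE).

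Agpat5 (ENSMUSG00000031467, chromosome 8, 18846277 to 18891361, plus strand), an enzyme of mitochondria, stood at 46.3 and 44.3 CPM against 45.6 and 42.2 at E11.5 and at 53.5 and 57.9 against 60.6 and 56.2 at E12.5. The genotypes overlapped at both stages, with log2 fold changes of -0.05 ± 0.10 and 0.07 ± 0.10 (SE). It has the longest exon union of the set, 10.783 kilobases, of which 18.9% are shared with Gm35934 on the opposite strand. After a trend of each library with gene length and GC content was removed, an alternative chosen after seeing the data, Agpat5 was at -0.24 at E11.5 (edgeR FDR = 0.578) and Agpat3 at -0.19 (FDR = 0.597), both with an unadjusted p under 0.05 and short of the adjusted threshold. In that fit Agpat1 stood at -0.06 at E11.5, and the share of all genes with an unadjusted p under 0.05 was 8.02% in place of 13.8%.

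The enzymes that act next to the set in the same pathways were read from 6 lists, and none of their genes was called at either stage. Of the 11 other glycerolipid acyltransferases, 9 passed the filter at E11.5 and 8 at E12.5, and the smallest p belonged to Lpgat1 at E11.5 (log2 fold change 0.18 ± 0.09, SE, FDR = 0.444) and to Plaat3 at E12.5 (-0.22 ± 0.23, FDR = 0.958). Of the 7 other MBOAT enzymes, 5 and 4 passed. Soat1, which esterifies cholesterol, was at 24.0 and 21.1 CPM in Mboat7+/- and 29.8 and 26.6 in Mboat7-/- at E11.5 (0.32 ± 0.14, SE, FDR = 0.343), and Porcn, which lipidates Wnt proteins, had the smallest p at E12.5 (0.08 ± 0.18, FDR = 0.972).

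The acyl-CoA synthetases supply the activated fatty acids that every enzyme of the set uses, and all 7 passed at both stages. Acsl1 had the smallest p at E11.5 (0.40 ± 0.18, SE, FDR = 0.365) and Acsl3 at E12.5, where it stood at 89.8 and 93.4 CPM in Mboat7+/- and 108.3 and 102.2 in Mboat7-/- (0.20 ± 0.09, FDR = 0.958). The phospholipases A make the lysophospholipids, and 10 of 13 passed at each stage, with the smallest p for Pnpla6 at E11.5 (0.18 ± 0.11, SE, FDR = 0.528) and Pnpla8 at E12.5 (0.16 ± 0.10, FDR = 0.958). Of the 7 genes of phosphatidylinositol synthesis and transfer, all passed, with the smallest p for Pitpnc1 at E11.5 (0.17 ± 0.07, SE, FDR = 0.361) and for Cdipt, the PI synthase, at E12.5 (-0.14 ± 0.10, FDR = 0.958).

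Lpcat3 is a textbook target of the liver X receptors, so the receptors and 4 other targets were read beside it, and all 6 passed at both stages. Abca1, a cholesterol exporter, stood at 17.4 and 17.4 CPM in Mboat7+/- and 22.6 and 25.5 in Mboat7-/- at E11.5, the smallest p of all 6 lists (0.47 ± 0.14, SE, FDR = 0.221), while the log2 fold change of Lpcat3 was below 0 there. At E12.5 Abcg1 had the smallest p of the list (-0.17 ± 0.13, SE, FDR = 0.958). The median of the list was 0.01 at the earlier stage and 0.10 at the later. At E11.5, 2 of the 6 had an unadjusted p under 0.05, Abca1 higher and the receptor Nr1h2 lower (-0.24). Nr1h2 and the other receptor, Nr1h3 (-0.46), were lower without overlap, and Abca1 and Mylip (0.27) were higher without overlap. Over all genes tested at that stage, 13.8% fell under that p, 7.94% higher and 5.81% lower. Without overlap, 23.3% were lower and 23.1% higher.

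**Figure D4:**
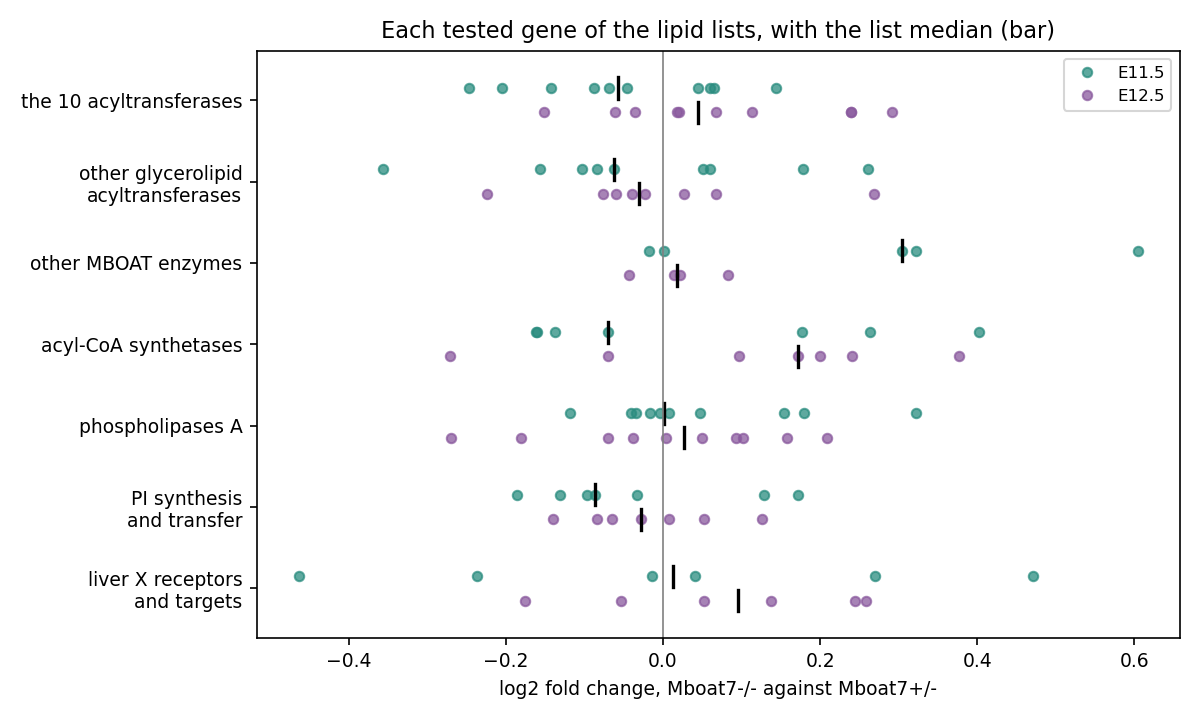
Log2 fold change of Mboat7-/- against Mboat7+/- for every tested gene of the 10 enzymes and of 6 lists of neighbouring lipid genes, with green points for E11.5, purple points for E12.5 and a black bar for the median of each list. The 10 enzymes lie between -0.25 and 0.29, and their medians of -0.06 and 0.04 lie on either side of 0.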

How the data were processed

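Poly(A) RNA of 8 mouse cortices was sequenced, per the labels from directional libraries. The authors deposited raw counts per gene, not normalized, in a table per stage, with symbols at E11.5 and Ensembl identifiers at E12.5. The submitters' processing notes name HISAT2 and Subread and the builds mm10 and GRCm39, without roles or versions, and the strand setting of the counting was not given in the sources used here. Genes were matched through the names and RefSeq tables and GENCODE M21 (GRCm38), which gave lengths in place of RefSeq transcript lengths.

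The genotypes were compared within a stage by the quasi-likelihood test of edgeR 4.0.16 (R 4.3.3) on all genes that passed filterByExpr (minimum count 10), with TMM factors and p-values adjusted by Benjamini-Hochberg over them. A call is an FDR under 0.05. Adding the size limit of the study's plots (log2 fold change of 1 either way) left 0 and 3 genes called. SEs come from the F statistic. CPM used TMM-normalized library sizes. A fit of all 8 cortices tested the change of the genotype difference between stages. Fits were tested on simulated data.

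The labels give a batch for each cortex that equals its replicate number. What the batch stands for was not given in the sources used here. The main fits did not use it, and the replicate block did. The deviations of same-numbered cortices from the group means correlated at 0.0548 across genes at E11.5 and at -0.121 at E12.5. Cortices of the same genotype and stage differed by more than sampling noise (chi-square per degree of freedom of 7.18 to 14.8) and came from separate embryos. Floors of 3 counts cover counting error only.

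All 10 enzymes and Mboat7 are named, and from each lipid list the gene with the smallest p at each stage. The enzymes and lists were chosen with earlier results of these data known. The alternatives were RLE factors, no normalization factor, DESeq2 1.42.0, other filters, the replicate block and leaving out each cortex, and, chosen after seeing the data, removal of length and GC trends, a crossed pairing and another transcript length. No column was left unmapped (0).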

Additional observations from a re-analysis of the deposited data

How the results depend on the processing

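With 2 embryos per genotype, changes within the confidence intervals given above may have been missed, and p-values measure only the spread between these embryos. None of the 10 enzymes was called at either stage or in the test between stages under any alternative run (with DESeq2, Lpcat2 had no adjusted p at E11.5), while the number of all genes called moved widely. At E11.5 it was 0 in the edgeR fit, 2 without normalization factors, 178 with DESeq2, 317 without a filter, 2 with at least 10 counts in every cortex, 349 with the replicate block, 169 with the block and the length and GC trend removed, and from 1 to 1180 with a cortex left out, the latter without the Mboat7-/- cortex 2. At E12.5 it was 3, and 10 with DESeq2, 0 without a filter, 0 with at least 10 counts in every cortex, 21 with the block, 61 with the block and trend removal, and from 33 to 301 with a cortex left out, the latter without the Mboat7-/- cortex 1. The E12.5 crossed pairing, added because the correlation of same-numbered cortices was negative, called 148. The test between stages called 0 genes with edgeR, 0 with the block, 19 with DESeq2, 69 without a filter and from 0 to 127 with a cortex left out. Apart from these counts, the block changed no call. The cause of these moves was not tested.

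The median log2 fold change of the 10 ranged from -0.085 to -0.0069 at E11.5 with a cortex left out, and at E12.5 from 0.027 to 0.10, where it was 0.080 without normalization factors, -0.032 with the trend removed and -0.030 with the trend and block. Trend removal, without and with the block, also turned the sign of Mboat2 (-0.12 and -0.12), Lpcat4 (0.022 and 0.025) and Lclat1 (-0.0023 and -0.0017) at E11.5 and of Mboat2 (-0.073 and -0.075), Lclat1 (-0.034 and -0.032) and Agpat5 (-0.066 and -0.061) at E12.5. Leaving out a cortex turned the sign at E11.5 of Mboat1 (-0.32 to 0.36), Mboat2 (-0.050 to 0.13), Lpcat1 (-0.030 to 0.35), Lpcat4 (-0.16 to 0.042), Lclat1 (-0.016 to 0.16) and Agpat5 (-0.10 to 0.0082), and at E12.5 of Mboat2 (-0.049 to 0.083), Lpcat2 (-0.065 to 0.76), Lpcat4 (-0.11 to 0.045) and Lclat1 (-0.031 to 0.069). For the change between stages it turned Mboat1 (-0.12 to 0.54), Mboat2 (-0.11 to 0.056), Lpcat1 (-0.11 to 0.27), Lpcat4 (-0.072 to 0.13), Lclat1 (-0.14 to 0.040), Agpat1 (-0.13 to 0.094) and Agpat3 (-0.055 to 0.10).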
